A study of Mus musculus with 8 samples.

Results

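Kruppel-like factors were followed in mouse bone marrow derived macrophages through the 8 genes Klf2, Klf3, Klf4, Klf6, Klf7, Klf9, Klf10 and Klf13. Every probe set that the platform annotation assigns to one of these genes was taken, which gave 24 probe sets among the 22626 on the array that are not controls, and 8 genes among the 12393 that a probe set names singly. None of the 24 is annotated to a second gene. The probe sets divide into 7 for Klf9, 4 for Klf7, 3 each for Klf3, Klf6 and Klf13, 2 for Klf4 and 1 each for Klf2 and Klf10. The probe sets of a gene read the same transcript pool and are not replicates of a condition, and those of Klf6 are described one by one because they differed.

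Marrow cells were cultured for 7 days in M-CSF (50 ng/ml), the growth factor that yields macrophages, and came from wild-type mice or from Vdr -/- mice, which carry the Vdr tm1 Rge knockout of the vitamin D receptor gene, so that every cell of the culture lacks the intact gene. In each genotype cells were left untreated, treated with IFN-gamma, which activates macrophages classically, treated with 1alpha,25(OH)2D3 (calcitriol, the hormone that binds the vitamin D receptor), or treated with both, for 24 to 48 hours. This gave 8 groups with 1 array each and no replicate of any group, so no value below has an error of its own. Each test takes its spread from array pairs that share a contrast, pooled in part over probe sets. The labels also describe peritoneal macrophages elicited with thioglycolate, but each source name gives bone marrow derived cells. Doses, the age and sex of the mice and the number of mice or cultures behind an array were not given in the sources used. A genotype and the cultures that stand for it therefore cannot be told apart.

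Kruppel-like factors are transcription factors that bind CACCC boxes and GC boxes in DNA through C2H2 zinc fingers at their C-terminus, and differ in the N-terminal part that recruits activators or repressors. In macrophages Klf2 and Klf4 are known as restraints on inflammatory activation, Klf4 also as a factor of monocyte differentiation and of alternative activation, and Klf6 as a factor that favours inflammatory gene expression. Klf9 is a target of glucocorticoid and thyroid hormone receptors, Klf10 is an early gene of TGF-beta signalling, Klf3 recruits the corepressor CtBP, and Klf13 was described as an activator of Ccl5 in T cells. Klf7 is a broadly expressed relative of Klf6.

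The results turn on Klf6 (chr13:5861489-5870393) and Klf9 (chr19:23141226-23168129), which passed a test, with positions in GRCm38.p6. Klf2 (chr8:72319062-72321654) did not pass and was higher with IFN-gamma in 4 of 4 pairs. Uncalled probe sets of Klf4, Klf7, Klf9 and Klf13 also moved one way in 4 of 4 pairs, so this does not set Klf2 apart. The promoters of Klf6, Klf9 and Klf2 are shown for the sites of the family itself, of MEF2 factors and of nuclear receptors that may lie next to these genes. Each line gives the 250 bases before the RefSeq start, 5′ to 3′ on the gene's plus strand, with every match to a searched motif in capitals.
Klf6, chr13:5861239-5861488: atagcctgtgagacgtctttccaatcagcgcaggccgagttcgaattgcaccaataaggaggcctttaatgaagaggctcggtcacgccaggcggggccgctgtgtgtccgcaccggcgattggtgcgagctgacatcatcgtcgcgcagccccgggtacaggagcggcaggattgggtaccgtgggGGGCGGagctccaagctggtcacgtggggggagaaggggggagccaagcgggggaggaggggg
Klf9, chr19:23140976-23141225: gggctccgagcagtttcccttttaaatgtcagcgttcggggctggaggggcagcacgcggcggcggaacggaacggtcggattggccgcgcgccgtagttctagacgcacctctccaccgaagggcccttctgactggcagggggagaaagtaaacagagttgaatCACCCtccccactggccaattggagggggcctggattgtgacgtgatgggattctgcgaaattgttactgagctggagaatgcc
Klf2, chr8:72318812-72319061: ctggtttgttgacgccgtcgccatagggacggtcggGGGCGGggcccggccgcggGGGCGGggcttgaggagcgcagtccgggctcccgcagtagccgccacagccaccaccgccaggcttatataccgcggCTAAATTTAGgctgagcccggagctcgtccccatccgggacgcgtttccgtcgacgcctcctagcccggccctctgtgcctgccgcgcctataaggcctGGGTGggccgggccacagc
The motifs, searched on both strands, were the GC box GGGCGG, the CACCC box CACCC, the MEF2 site (CTA and TAG with 4 bases between them) and the nuclear receptor half-site AGGTCA, and no 2 matches overlap in these 3 windows. Klf6 has 1 GC box, 63 bases before the start. Klf9 has 1 CACCC box, 84 bases before the start. Klf2 has 2 GC boxes, 1 CACCC box on the other strand and 1 match to the MEF2 motif, CTAAATTTAG, 118 bases before the start. RefSeq held a promoter for 7 of the 8 genes, all but Klf10. Of these 7, 6 hold the GC box, 5 the CACCC box, 1 the MEF2 motif and 0 the half-site. Among all 32851 promoter windows of this length, 32.7% hold the GC box, 52% the CACCC box, 3.2% the MEF2 motif and 14% the half-site. A match is a description of letters and not a measured site.

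The arrays differed in ways that touch what follows. The ratio of 3′ to 5′ signal of the Gapdh control, which rises when RNA is truncated, was 7.67 on the wild-type calcitriol array, 4.82 on the array labelled Vdr-/- untreated, 3.06 on the array of Vdr-/- cells with IFN-gamma, and between 0.853 and 1.65 elsewhere. The first 2 of these arrays also had the lowest correlations with the rest (Pearson's r across probe sets of at most 0.781 and 0.809). Vdr itself went against the labels of both untreated arrays. Its brighter signals there, 90.3 and 63.2 by its 2 probe sets, were on the array labelled Vdr-/-, and its dimmer ones, 6.7 and 5.3, on the one labelled wild type. Every direction below that uses an untreated array rests on those labels, and where these probe sets lie relative to the deletion was not given in the sources used here. Of the macrophage markers 9 of 9 reached the signal filter given below on at least 1 array. So did 18058 of the 22626 probe sets, 6 of 7 stromal markers and 6 of 8 neutrophil markers, so this count alone does not mark identity. The summed macrophage marker signal was 40169.3 to 67353.2 per array. Summed signals of stromal, neutrophil and erythroid or megakaryocyte markers were lower with IFN-gamma, without overlap (199.4 to 342.3 against 429.2 to 785.8 for the 7 stromal markers, 247.7 to 350.4 against 406.1 to 693.7 for the 8 neutrophil markers, 154.1 to 217.8 against 267.7 to 514 for 4 erythroid or megakaryocyte markers). The macrophage sum was lower with it too (40169.3 to 56927.9 against 60898.2 to 67353.2). Of its 9 markers 1 passed higher in the test given below (Fcgr1, 1.96 log2) and 1 lower (Ctsd, -1.23 log2). The dendritic sum was higher (810.3 to 1140.6 against 200.7 to 601.6), and most of it was Cd83 (704.4 to 966.4 against 122.4 to 429.4). Much of the erythroid or megakaryocyte sum was Pf4 (85.7 to 152 against 207.9 to 474.7). How many other probe sets were without such overlap was not counted. Endothelial markers, which matter because endothelial cells are rich in Klf2 and Klf4, summed to 162.5 to 546.9 and lymphocyte markers to 83 to 278.4. The part of these shifts in the changes below was not tested. In RNA from a whole culture, fewer cells of a type and less RNA per cell cannot be told apart.

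Of the 24 probe sets, 21 reached a signal of 59.1 (the median of all values) on at least 1 array and were tested. Signals below 15.5 were set to 15.5, called the floor here, and tests were run on log2 signals with limma, a linear model with a spread shared across probe sets, with p-values adjusted by Benjamini-Hochberg over the 18058 probe sets tested. Of the 21, 2 passed for IFN-gamma (1 higher and 1 lower), or 9.52%, where 3.43% of all tested probe sets passed, 2.15% higher and 1.27% lower. The same 2 probe sets, of Klf6 and Klf9, passed for calcitriol in wild type in the opposite directions, against 0.576% of all (0.188% higher and 0.388% lower), and for the difference of the calcitriol effects between genotypes, against 1.5% of all (0.172% higher and 1.33% lower). At an unadjusted p under 0.05 the counts were 8 of 21 (38.1%, with 12.4% of all probe sets) for IFN-gamma and 6 of 21 (28.6%, with 10.3% of all) for calcitriol in wild type. These counts are of probe sets that share genes, and the 2 IFN-gamma calls use the same arrays as the calcitriol calls. The median change of the 21 was -0.118 log2 with IFN-gamma (all probe sets -0.0804) and 0.236 log2 with calcitriol in wild type (all 0.0462).

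**Figure D1:**
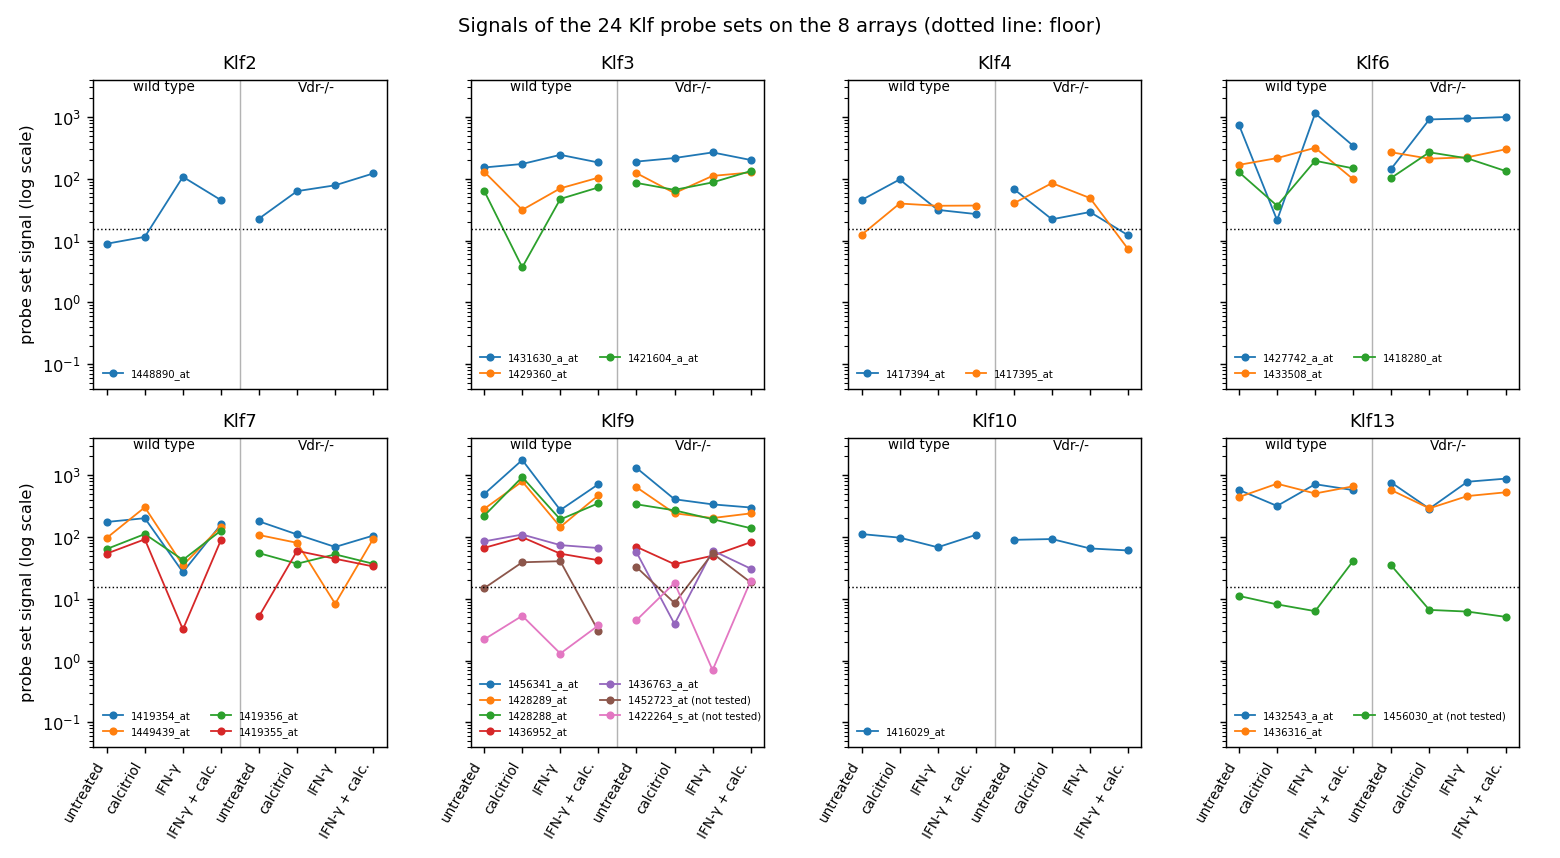
Signal of each of the 24 Klf probe sets (vertical log scale, array units) on each of the 8 arrays (horizontal), with wild type left and Vdr-/- right of the grey line in each panel and the dotted line at the floor of 15.5. Each point is 1 array, lines join arrays of a genotype only to guide the eye, and the brightest Klf6 probe set reads 21.4 on the wild-type calcitriol array while the brightest Klf9 probe set reads 1756 there.

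**Figure D2:**
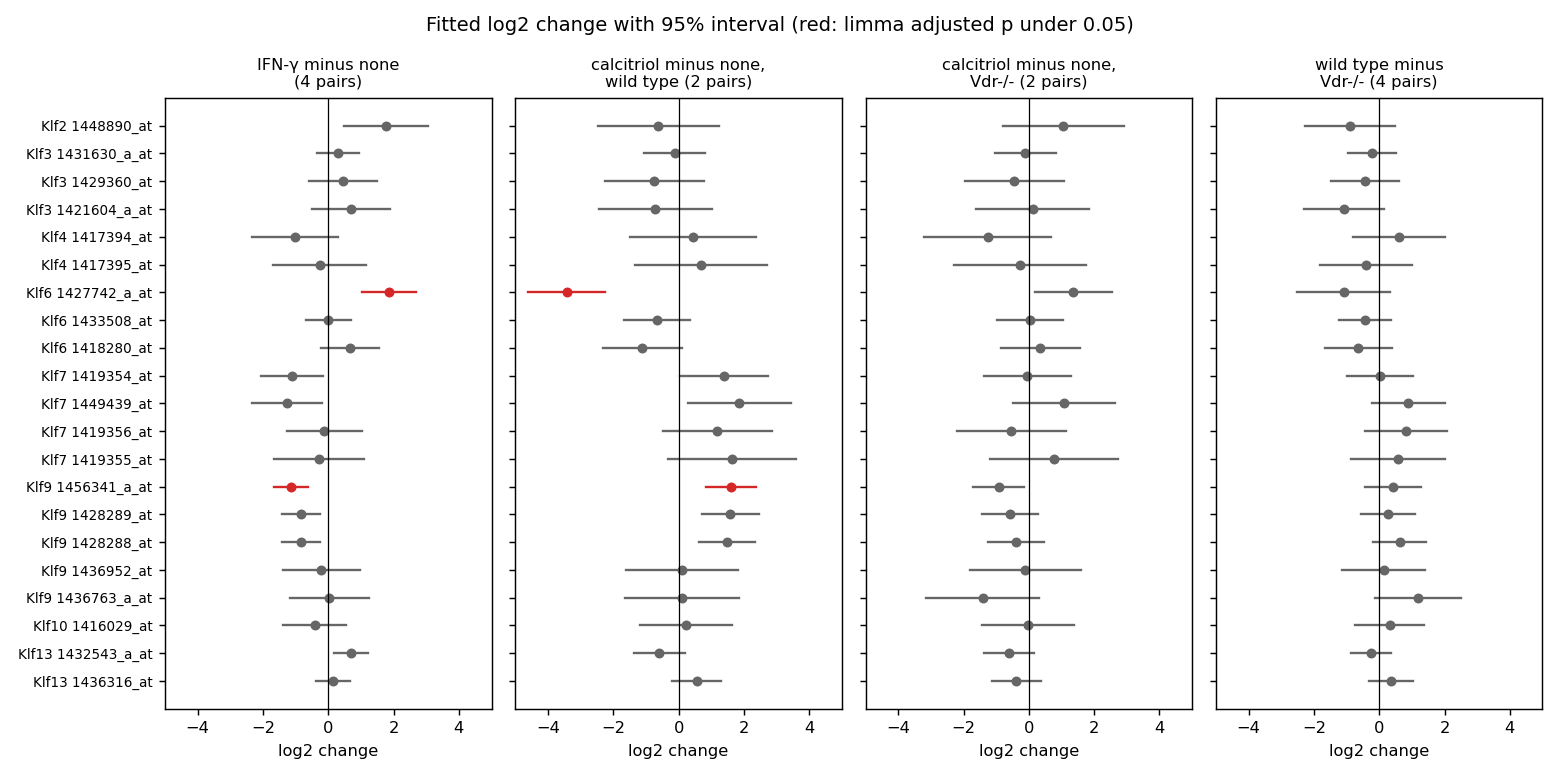
Fitted log2 change (points) with its 95% interval (lines) for the 21 tested probe sets in 4 contrasts, red where the limma adjusted p is under 0.05. Klf6 1427742_a_at and Klf9 1456341_a_at are red for IFN-gamma and for calcitriol in wild type, with opposite signs, and no point is red in the other 2 panels.

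Klf6 was lower with calcitriol in wild type and higher with IFN-gamma by its brightest probe set, 1427742_a_at. Its signals in wild type were 740.3 (labelled untreated), 21.4 (calcitriol), 1145.1 (IFN-gamma) and 340.3 (both). In Vdr-/- they were 145.5 (labelled untreated), 912.5 (calcitriol), 946.2 (IFN-gamma) and 997.3 (both). The wild-type calcitriol array was the lowest and the array labelled Vdr-/- untreated the second lowest, and these were the 2 arrays with the highest Gapdh ratios. The other 6 arrays lay between 340.3 and 1145.1, and among them the wild-type array with both treatments was the lowest.

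With calcitriol in wild type this Klf6 probe set fell by 3.43 log2 (SE 0.567, 95% interval -4.60 to -2.26, limma adjusted p = 0.00535), which is 10.8-fold, and it was lower in 2 of 2 pairs. The fall was 34.6-fold without IFN-gamma, where the pair includes the array with the Gapdh ratio of 7.67, and 3.36-fold with IFN-gamma, where the ratios were 1.65 and 1.04. In Vdr-/- the change was 1.36 log2 (SE 0.567, adjusted p = 0.701), 6.27-fold higher without IFN-gamma and 1.05-fold higher with it. The difference between the genotypes was -4.79 log2 (SE 0.801, 95% interval -6.45 to -3.14, limma adjusted p = 0.00255). With the Gapdh ratio as a covariate the wild-type change was -0.39 log2 (adjusted p = 0.975) and the difference turned to 1.77 log2 (0.818). That fit had 1 residual degree of freedom. The ratio was highest on the wild-type calcitriol array and lowest on the Vdr-/- calcitriol array (0.853), so the fit separates ratio and calcitriol poorly. Without the 2 arrays of highest ratio the wild-type change was -1.63 log2 (adjusted p = 0.599), and with only 1 wild-type pair it was -5.11 log2 (0.451) or -1.75 log2 (0.718).

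With IFN-gamma the same probe set rose by 1.86 log2 (SE 0.404, 95% interval 1.03 to 2.70, limma adjusted p = 0.00625), which is 3.64-fold, and it was higher in 4 of 4 pairs. The 4 pairs were unequal in size. The increase was 15.9-fold in wild type with calcitriol and 6.5-fold in Vdr-/- without it, both against an array of high Gapdh ratio, and 1.55-fold in wild type without calcitriol and 1.09-fold in Vdr-/- with it. An additive fit without the 2 arrays of highest ratio, which does not compare within pairs, gave -0.078 log2 (adjusted p = 0.964). The pairs that hold neither array are those that rose 1.55-fold and 1.09-fold. With the ratio as a covariate the change was 0.86 log2 (0.192). Leaving out 1 pair kept the call only without the Vdr-/- pair with calcitriol (2.44 log2, adjusted p = 0.00411, against 1.15 to 2.27 log2 without 1 of the others, 0.25 to 0.635). The IFN-gamma and calcitriol calls for Klf6 share the 2 lowest arrays.

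The other 2 Klf6 probe sets passed in none of the 6 contrasts and differed from the first and from each other. Probe set 1418280_at read 127.7 (labelled untreated), 36.6 (calcitriol), 195.6 (IFN-gamma) and 147.3 (both) in wild type. In Vdr-/- it read 103.6 (labelled untreated), 268 (calcitriol), 213.8 (IFN-gamma) and 133.7 (both). Its 2 lowest arrays were the same as those of 1427742_a_at, with a change of -1.11 log2 with calcitriol in wild type (SE 0.588, adjusted p = 0.536) and 0.67 log2 with IFN-gamma (SE 0.427, adjusted p = 0.59).
Probe set 1433508_at did not have this dip. It read 168, 216, 317 and 98.2 on the wild-type arrays in the order above and 268.3, 211.1, 222.9 and 299.6 on the Vdr-/- arrays. The highest and the lowest of its values were on the wild-type arrays with IFN-gamma alone and with both treatments, so with IFN-gamma present calcitriol went with a 3.23-fold lower signal, close to the 3.36-fold of 1427742_a_at, while without IFN-gamma it went with a 1.29-fold higher one. Its fitted change was -0.66 log2 with calcitriol in wild type (SE 0.489, adjusted p = 0.697) and 0.004 log2 with IFN-gamma (SE 0.337, adjusted p = 0.998). All 3 Klf6 probe sets were lower with calcitriol in the wild-type pair that had IFN-gamma, the third, 1418280_at, by 1.33-fold. The 3 probe sets come from 3 source records in the annotation, and the place of each along the Klf6 transcript was not given in the sources used here.

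**Figure D3:**
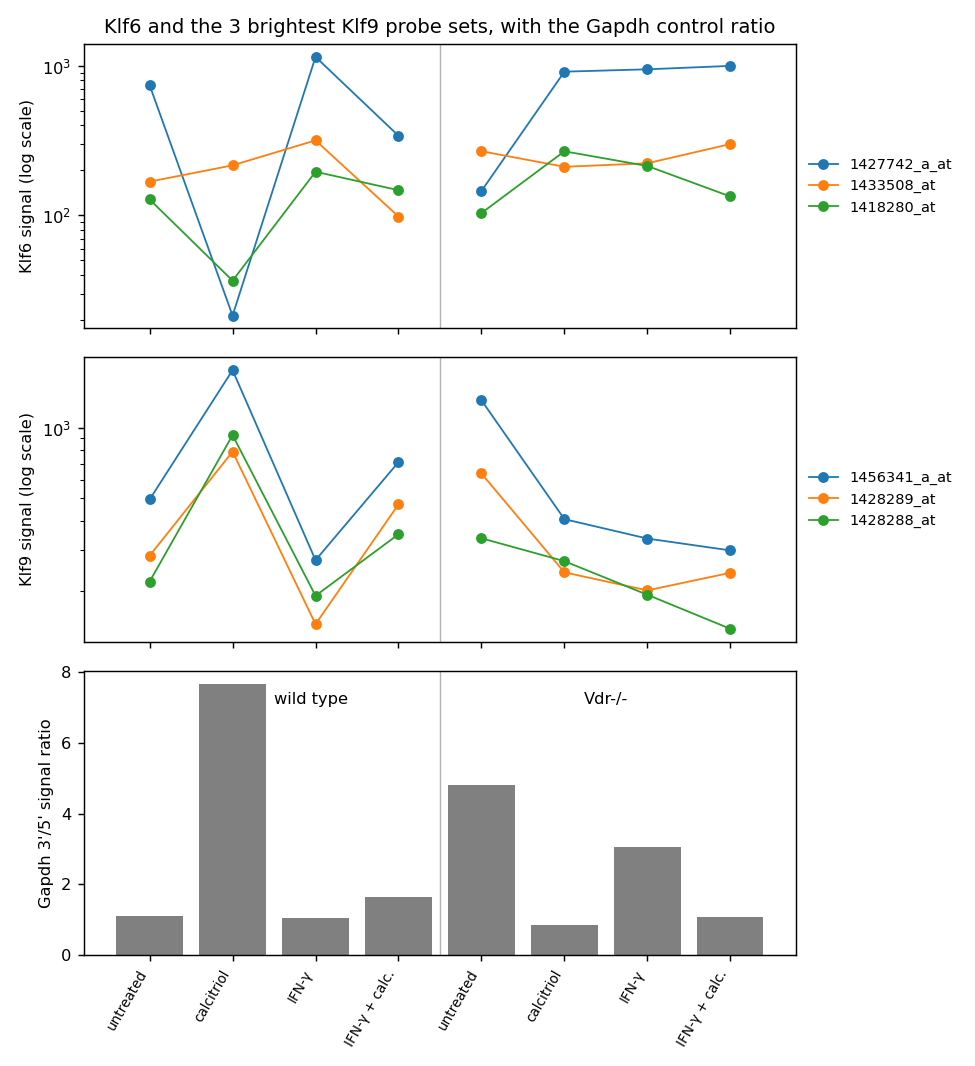
Signals of the 3 Klf6 probe sets (top, log scale) and of the 3 brightest Klf9 probe sets (middle, log scale) on each array, above the Gapdh 3′/5′ signal ratio of that array (bars from 0). Klf6 1427742_a_at is lowest and Klf9 1456341_a_at highest on the 2 arrays with ratios of 7.67 and 4.82, while Klf6 1433508_at reads 216 and 268.3 there.

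Klf9 went the other way, higher with calcitriol in wild type and lower with IFN-gamma. Its brightest probe set, 1456341_a_at, read 493.3 (labelled untreated), 1756 (calcitriol), 271.8 (IFN-gamma) and 711.9 (both) in wild type. In Vdr-/- it read 1306.3 (labelled untreated), 406.6 (calcitriol), 336 (IFN-gamma) and 299.1 (both). The 2 highest values were again on the arrays with the highest Gapdh ratios, and the third was on the wild-type array with both treatments, whose ratio was 1.65. With calcitriol in wild type the probe set rose by 1.61 log2 (SE 0.372, 95% interval 0.84 to 2.38, limma adjusted p = 0.0447), which is 3.05-fold, in 2 of 2 pairs. The rise was 3.56-fold without IFN-gamma and 2.62-fold with it. The pair with IFN-gamma holds neither of the 2 arrays of highest ratio, but its calcitriol array again had the higher ratio (1.65 against 1.04). The part of the ratio in that pair was not tested. The call is close to the threshold. Without those 2 arrays the change was 1.29 log2 (adjusted p = 0.599), and with only 1 wild-type pair it was 1.83 log2 (0.451) or 1.39 log2 (0.683).

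In Vdr-/- this Klf9 probe set changed by -0.93 log2 with calcitriol (SE 0.372, adjusted p = 0.658), 3.21-fold lower without IFN-gamma, where the array labelled Vdr-/- untreated had the ratio of 4.82, and 1.12-fold lower with it. The difference between the genotypes was 2.54 log2 (SE 0.526, 95% interval 1.45 to 3.63, limma adjusted p = 0.0112). With IFN-gamma it fell by 1.14 log2 (SE 0.254, 95% interval -1.67 to -0.616, limma adjusted p = 0.00806), which is 2.21-fold, and it was lower in 4 of 4 pairs, by 1.36-fold to 3.89-fold. An additive fit without the 2 arrays of highest ratio, which does not compare within pairs, gave an IFN-gamma change of -0.26 log2 (adjusted p = 0.836). The pairs that hold neither array fell by 1.81-fold in wild type and 1.36-fold in Vdr-/-. With the ratio as a covariate the IFN-gamma change was -0.95 log2 (0.0817). As for Klf6, leaving out 1 pair kept this call only without the Vdr-/- pair with calcitriol (-1.37 log2, adjusted p = 0.00863, against 0.187 to 0.384 without 1 of the others). The calcitriol change in wild type was 0.85 log2 with that covariate (0.809), and the difference between genotypes 0.89 log2 (0.929). That fit again separates ratio and calcitriol poorly.

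The next 2 Klf9 probe sets, which share 1 source record in the annotation and are not independent, had the same order of high and low wild-type arrays. Probe set 1428289_at read 284, 789, 145 and 470.1 in wild type (labelled untreated, calcitriol, IFN-gamma, both) and 636.6, 241.1, 202 and 240.1 in Vdr-/-. Probe set 1428288_at read 220.2, 927.9, 191.6 and 350.5 in wild type and 337, 269.1, 193.5 and 138.5 in Vdr-/-. In both, as in 1456341_a_at, the wild-type arrays with calcitriol lay above their partners without it, by 1.83-fold to 4.21-fold, and the IFN-gamma arrays lay below theirs. Neither passed the test: the calcitriol changes in wild type were 1.59 log2 (SE 0.416, limma adjusted p = 0.089) and 1.47 log2 (SE 0.415, 0.125). Their IFN-gamma changes were both -0.84 log2 (adjusted p = 0.134 and 0.136), and -0.13 and -0.24 log2 without the 2 arrays of highest ratio (0.937 and 0.857). The differences between the genotypes in the calcitriol effect were 2.16 log2 (0.0679) and 1.88 log2 (0.13).
The other 4 Klf9 probe sets were dim. Probe sets 1436952_at (36.2 to 98.9) and 1436763_a_at (3.9 to 109.3) were tested and passed nowhere, and both had their highest value on the wild-type calcitriol array. Probe sets 1452723_at (3 to 54.2) and 1422264_s_at (0.7 to 19.5) did not reach 59.1 on any array and were not tested.

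**Figure D4:**
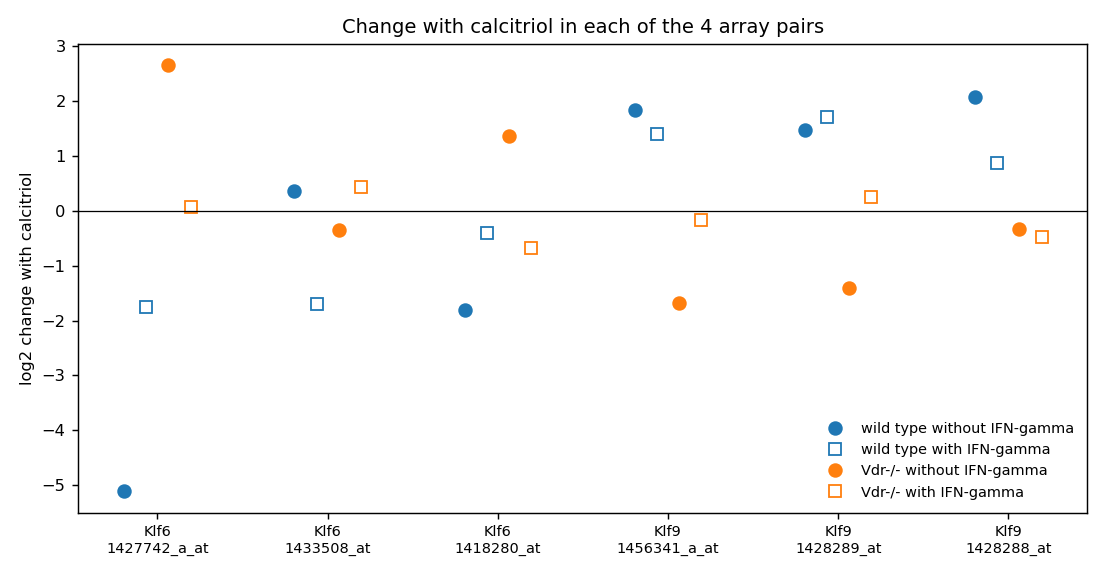
Log2 change with calcitriol (vertical) in each of the 4 array pairs for 3 Klf6 and 3 Klf9 probe sets (horizontal), with wild type in blue, Vdr-/- in orange, filled circles without IFN-gamma and open squares with it. Each point is 1 pair with no error of its own, and the 3 Klf9 probe sets are above 0 in both wild-type pairs while Klf6 1427742_a_at is below 0 in both.

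Klf2 was dim without IFN-gamma and higher with it on every pair, but did not pass the test. Its only probe set, 1448890_at, read 8.9 (labelled untreated), 11.5 (calcitriol), 107.5 (IFN-gamma) and 45.2 (both) in wild type. In Vdr-/- it read 22.7 (labelled untreated), 63.1 (calcitriol), 78.5 (IFN-gamma) and 122 (both). The lowest array with IFN-gamma, 45.2, lay below the highest without it, 63.1, so the 2 sets of arrays overlapped. The log2 change with IFN-gamma was 1.77 (SE 0.618, 95% interval 0.491 to 3.05, limma adjusted p = 0.155), and the floor replaced the signals of both wild-type arrays without IFN-gamma, which lowers the size of this change. With the floor at the pooled 40th percentile it was 0.88 log2 (adjusted p = 0.307). With calcitriol the 2 genotypes differed in sign when IFN-gamma was present, 2.38-fold lower in wild type and 1.55-fold higher in Vdr-/-, values of 1 pair each.

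Klf4, the closest relative of Klf2 in macrophage biology, was dim throughout. Probe set 1417394_at read 45.3, 97.5, 31.4 and 26.9 in wild type (labelled untreated, calcitriol, IFN-gamma, both) and 68.1, 22.1, 29 and 12.2 in Vdr-/-. It was lower with IFN-gamma in 4 of 4 pairs, by 1.43-fold to 3.62-fold, and did not pass (-1.03 log2, SE 0.638, limma adjusted p = 0.571). Probe set 1417395_at read 7.3 to 85.1, with its highest value on the Vdr-/- calcitriol array. The 2 Klf4 probe sets did not share their highest array.

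Klf7 was higher with calcitriol in wild type by each of its 4 probe sets in both pairs, 8 of 8 changes, by 1.15-fold to 5.91-fold, and none passed. These probe sets share 1 source record in the annotation and are not independent. How many of all probe sets were higher in both wild-type pairs was not counted. Probe set 1419354_at read 174.5 (labelled untreated), 200.9 (calcitriol), 26.9 (IFN-gamma) and 158.9 (both) in wild type, and 178.4, 109.6, 68.8 and 105.2 in Vdr-/-. Probe set 1449439_at read 96.3, 301.6, 34.9 and 147 in wild type and 107.3, 80.2, 8.3 and 93.2 in Vdr-/-. In both, the arrays with IFN-gamma alone were the lowest of each genotype, and the wild-type array with both treatments lay 5.91-fold and 4.21-fold above its partner. The Vdr-/- array with both lay 1.53-fold and 6.01-fold above its own, the latter with 8.3 raised to the floor. Without IFN-gamma the Vdr-/- changes were 1.63-fold and 1.34-fold lower. The calcitriol effects did not differ between genotypes in the test (limma adjusted p = 0.584 and 0.811). The calcitriol changes in wild type were 1.38 log2 (SE 0.651, limma adjusted p = 0.474) and 1.86 log2 (SE 0.759, 0.379). The IFN-gamma changes were -1.12 log2 (SE 0.456, 0.274) and -1.27 log2 (SE 0.522, 0.282). Probe sets 1419356_at (36.8 to 126.5) and 1419355_at (3.2 to 91.5) were dimmer. With calcitriol in Vdr-/-, 1419356_at was 1.48-fold lower without IFN-gamma and 1.42-fold lower with it. There 1419355_at was 3.84-fold higher without IFN-gamma, with 5.2 raised to the floor, and 1.33-fold lower with it.

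Klf13 had 2 bright probe sets, which did not move together. Probe set 1432543_a_at read 576.3 (labelled untreated), 316.9 (calcitriol), 712.3 (IFN-gamma) and 571.8 (both) in wild type, and 756.1, 286.5, 780.4 and 875.9 in Vdr-/-. It was lowest on the 2 arrays with calcitriol alone and higher with IFN-gamma in 4 of 4 pairs, with a change of 0.70 log2 (SE 0.257, limma adjusted p = 0.186). Probe set 1436316_at read 441.1, 725.7, 504.4 and 658.9 in wild type and 571.6, 290, 458 and 526.3 in Vdr-/-. In wild type it was higher with calcitriol in both pairs, where 1432543_a_at was lower in both. Probe set 1456030_at (5.1 to 41) did not reach the filter.
Klf3 by its brightest probe set and Klf10 varied little. The brightest Klf3 probe set, 1431630_a_at, ran from 152.3 to 266.9, and its highest value in each genotype was on the array with IFN-gamma alone (243.9 and 266.9). Klf3 probe set 1429360_at ran from 31.4 to 130 and 1421604_a_at from 3.7 to 133.3, and both had their lowest value on the wild-type calcitriol array. Klf10, by 1416029_at, ran from 60.4 to 111.2, and in each pair without calcitriol the IFN-gamma array was the lower (68 against 111.2, and 65.1 against 89.7). With calcitriol the wild-type Klf10 signal was 97.3 without IFN-gamma and 107.8 with it, while in Vdr-/- it was 92.4 and 60.4. Klf3 and Klf10 passed in no contrast.

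Genotype was compared over the 4 treatments to ask which genes differ without the receptor. None of the 21 probe sets passed in limma, 0 had an unadjusted p under 0.05, and of all probe sets 0% passed, with 3.38% at an unadjusted p under 0.05. The changes ranged from -1.09 log2 (Klf6 1427742_a_at, 95% interval -2.51 to 0.335) to 1.20 log2 (Klf9 1436763_a_at, -0.115 to 2.51), so differences of 2-fold and more lie within these intervals. The difference of the IFN-gamma effects between genotypes was called for 0 of 21 in limma, with 0 at an unadjusted p under 0.05, where 0% of all probe sets passed and 3.52% had such a p. With calcitriol in Vdr-/-, 0 of 21 passed in limma, 2 had an unadjusted p under 0.05 (Klf6 1427742_a_at and Klf9 1456341_a_at), and of all probe sets 0.194% passed and 6.35% had such a p.

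Genes that surround the family were read from lists, with the brightest tested probe set of each gene. Of the other family genes, Klf1, Klf5, Klf16 and Klf17 were measured (4 of 9 listed), and of the Sp factors, which share the GC box, Sp1, Sp3, Sp4 and Sp7 (4 of 8). In both lists 0 genes passed in any of the 6 contrasts in limma and 0 had an unadjusted p under 0.05. Of all probe sets 0% to 3.43% passed, depending on the contrast, and 3.38% to 12.4% had such a p, so 0 of 4 says little. All 6 listed genes of the MEF2 and ERK5 path, which drives Klf2 and Klf4 in endothelial cells, were measured and 0 passed. At most 2 had an unadjusted p under 0.05, for IFN-gamma, where 12.4% of all probe sets had such a p. Of 10 measured corepressors and ubiquitin ligases 1 passed, for IFN-gamma, where 3.43% of all probe sets passed. It was Wwp1, a ubiquitin ligase of Klf2 and Klf5, which fell by 1.21 log2 (SE 0.281, limma adjusted p = 0.0114), and by 0.66 log2 with the Gapdh ratio as a covariate (0.272). The Wwp1 call was lost in 8 alternatives and kept in 5. Medians of these 4 lists with IFN-gamma were -0.411, -0.319, -0.473 and -0.119 log2, and with calcitriol in wild type -0.572, -0.131, 0.0329 and -0.259 log2, beside the medians of all probe sets given above.

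Of 14 measured genes listed as linked to these factors, not all of them targets, 1 rose and 1 fell with IFN-gamma (2.15% and 1.27% of all probe sets). With calcitriol in wild type 1 rose (0.188% of all), and the list medians were -0.495 and -0.1 log2. Mrc1, the mannose receptor gene, which Klf4 is known to favour, read 357.8 (labelled untreated), 1125.2 (calcitriol), 76 (IFN-gamma) and 348.3 (both) in wild type and 593.4, 479.6, 150.2 and 128.3 in Vdr-/-. It fell by 1.95 log2 with IFN-gamma (SE 0.267, limma adjusted p = 2.75e-05) and rose by 1.93 log2 with calcitriol in wild type (SE 0.391, 0.0216), the directions of Klf9. The Mrc1 call for calcitriol was lost in 8 alternatives and kept in 2, with 2.26 log2 (adjusted p = 0.071) under the Gapdh covariate, and that for IFN-gamma was lost in 2 and kept in 11. Cdkn1a, the p21 gene, which Klf4 and Klf6 activate, rose by 0.97 log2 with IFN-gamma (0.0136), a call lost in 8 alternatives, with adjusted p of 0.0566 to 0.376, and kept in 5. The calcitriol effect on Mrc1 was higher in wild type than in Vdr-/- by 2.19 log2 (limma adjusted p = 0.0435), as for Klf9, a call lost in 10 alternatives and kept in 2. Tsc22d3, which like Klf9 is a glucocorticoid target, had a lower calcitriol effect in wild type than in Vdr-/- by -3.49 log2 (adjusted p = 0.0109), opposite to Klf9, and its lowest 2 signals were 57.5 and 81.2 on the 2 arrays with the highest Gapdh ratios. That difference was -0.62 log2 with the ratio as a covariate (0.972), and its call was lost in 10 alternatives and kept in 2.
Immediate early genes, the class to which Klf2, Klf4, Klf6 and Klf10 belong in many cells, fell for 2 of 16 with IFN-gamma, where 1.27% of all probe sets fell (list median -0.189 log2). Dusp1 fell by 2.39 log2 (SE 0.303, limma adjusted p = 9.22e-06) and Fos fell by 1.94 log2 (SE 0.225, 2.29e-06), while Klf6 1427742_a_at rose. The Dusp1 call was lost in 4 alternatives and kept in 9, and the Fos call was lost in 2 and kept in 11. With calcitriol in wild type 1 of 16 fell, where 0.388% of all probe sets fell (median 0.0556 log2). Fos fell by 2.13 log2 (SE 0.331, limma adjusted p = 0.00376), from 1857.2 to 449.8 without IFN-gamma and from 473.1 to 102.3 with it. This call was lost in 6 alternatives and kept in 4, the Gapdh covariate among them (-2.07 log2, adjusted p = 0.0243). The calcitriol effect on Fos also differed between the genotypes, by -2.01 log2 (wild type minus Vdr-/-, limma adjusted p = 0.0264). For this difference 1 of 16 was lower, where 1.33% of all probe sets were, and the call was lost in 10 alternatives and kept in 2. Of the 9 macrophage markers, 2 fell with calcitriol in wild type (0.388% of all probe sets) and 5 had a lower calcitriol effect in wild type than in Vdr-/- (1.33% of all), the direction of Klf6 1427742_a_at. These contrasts hold the 2 arrays of highest Gapdh ratio, on which Cd68, for example, read 1975.7 and 2200.6, and their part in these counts was not tested.

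The genes whose log2 signals ran most like a member over the 8 arrays, by Pearson's r and as a description only, were named 3 to a member. With 18058 probe sets and 8 arrays, high values of r are common, and all points share the arrays and their differences in RNA. For Klf6 1427742_a_at they were Syf2 (0.994), Gpr146 (0.992) and Fuca1 (0.988). For Klf9 1456341_a_at they were Tpt1 (0.983), Cstb (0.983) and Scrn3 (0.98). For Klf2 they were Slfn8 (0.989), Themis2 (0.969) and Rbm42 (0.968). For Klf3 1431630_a_at they were Trim30a (0.962), Acot9 (0.953) and Praf2 (0.938). For Klf4 1417394_at they were Shmt2 (0.995), Tbc1d22a (0.978) and Ppp1r14b (0.963). For Klf7 1419354_at they were Mindy1 (0.975), Rcor3 (0.972) and Tspan9 (0.97). For Klf10 they were Snx12 (0.983), Smad3 (0.971) and Bola2 (0.951), and for Klf13 1432543_a_at Lrrk2 (0.97), Setd1a (0.969) and Tpmt (0.967).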

How the data were processed

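Total RNA was measured on 8 one-colour arrays, 1 per group. The deposited values are linear probe set intensity signals. The authors scaled the arrays to one level, as the 2% trimmed means of 150.07 to 150.08 show, while software and detection calls were not given in the sources used here. Of 22690 probe sets, 64 controls were set aside. Signals were raised to at least the pooled 25th percentile (15.5) and put on the log2 scale. The 18058 probe sets with a signal of 59.1 (the pooled median) or more on some array were tested. The platform annotation named 1 gene for 20380 probe sets, several for 691 and none for 1555, and the last 2 kinds were tested unnamed. Promoters and gene positions are RefSeq's, GRCm38.p6.

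All tests were two-sided, by limma (version 3.58.1, R 4.3.3) with an intensity trend, at an adjusted p of 0.05. The IFN-gamma and genotype fits kept the 4 array pairs as blocks and had 3 residual degrees of freedom. For calcitriol, and for differences between genotypes, effects were fitted inside each genotype, with 2 residual degrees of freedom. The spread is thus the disagreement of pairs, drawn toward that of probe sets of like intensity, and not replicate error. Where pairs disagree widely, as for Klf6 1427742_a_at with calcitriol in wild type (-5.11 and -1.75 log2), the SE of 0.567 rests largely on other probe sets. The fits were also run on simulated data with independent noise. Those data held no differences in RNA between whole arrays, so they cannot show how such differences affect the calls.

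The 8 genes, the lists and the contrasts were chosen with earlier results of these data known. All 24 member probe sets are described. Of the list genes, up to 4 called ones are named per list and contrast, and the 3 genes most like a member. Alternatives were quantile normalization, other filters and floors, no trend, a fit adjusted for the Gapdh ratio, additive fits and each pair left out. The fits without the 2 arrays of highest ratio were additive too, with no pairs as blocks. The Gapdh fit left 2 residual degrees of freedom for IFN-gamma. It left 1 for the calcitriol contrasts, where it separates the ratio and calcitriol poorly. Figures used Python 3.11.15 and matplotlib 3.10.9.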

Additional observations from a re-analysis of the deposited data

Results flagged for a closer look

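The calcitriol effect on Klf6 1427742_a_at differed between the genotypes by -4.79 log2 (limma adjusted p = 0.00255), lower in 2 of 2 wild-type pairs and higher in 2 of 2 Vdr-/- pairs. The calcitriol effect on Klf9 1456341_a_at differed by 2.54 log2 (adjusted p = 0.0112), higher in 2 of 2 wild-type pairs and lower in 2 of 2 Vdr-/- pairs. Both stand here because the test of the difference itself passed. In both, the pairs without IFN-gamma hold the 2 arrays with the highest Gapdh ratios, 1 in each genotype and on opposite sides of the contrast. The ratio thus overlaps with the contrast, and a fit with it as a covariate separates them poorly. With IFN-gamma the changes were 3.36-fold lower and 1.05-fold higher for Klf6, and 2.62-fold higher and 1.12-fold lower for Klf9. With the Gapdh ratio as a covariate the differences were 1.77 log2 for Klf6 (adjusted p = 0.818) and 0.89 log2 for Klf9 (0.929), and without those 2 arrays they were -1.83 log2 (0.702) and 1.56 log2 (0.702).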

How the results depend on the processing

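The 36 fitted values for single probe sets gave 422 values under alternatives, of which 291 kept their direction and their side of the threshold, 119 kept the direction but lost the call, 1 gained it and 11 turned sign. Many of the 36 were not called in the main fit, and for these keeping the side means staying uncalled. The 119 losses are all of called values. The calcitriol call in wild type was kept in 2 alternatives and lost in 8 for Klf6 1427742_a_at. It was kept in 1 and lost in 9 for Klf9 1456341_a_at. The IFN-gamma call was kept in 4, lost in 8 and turned in 1 for Klf6, and kept in 5 and lost in 8 for Klf9. The number of Klf probe sets called, 2 for IFN-gamma, calcitriol in wild type and the difference of calcitriol effects, became 0 in all 3 without the signal filter, without the intensity trend, with the Gapdh ratio as a covariate and without the 2 arrays of highest ratio. It became 1, 0 and 0 with the stricter filter, 0 for IFN-gamma in an additive fit with no blocks, 1 for calcitriol in wild type with quantile normalization, and 0 and 1 for calcitriol in wild type and for the difference with the lower floor. Other values were within 1.5 times. The genotype count of 0 became 1 (Klf6) with the covariate. Leaving out 1 pair gave 0 to 2 for IFN-gamma (2 only without the Vdr-/- pair with calcitriol), 0 to 0 for the 2 calcitriol results and for the 3 results with no call. In those calcitriol fits, added after seeing the data, 1 residual degree of freedom remained and the lone pair is assumed to vary like the others.

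Among turned signs, Klf6 1427742_a_at went to -0.078 log2 for IFN-gamma in the additive fit without the 2 arrays. With the covariate it went to -2.16 for calcitriol in Vdr-/- and 1.77 for the difference. Klf6 1418280_at went to -0.13 (IFN-gamma) and 0.27 (difference) without the 2 arrays, and to 0.46 (calcitriol in wild type) and 1.92 (difference) with the covariate. With 1 pair left out, Klf6 1433508_at ran from -0.30 to 0.38 for IFN-gamma (-0.16 without the Vdr-/- pair with calcitriol). The 0.38 was without the wild-type pair with calcitriol. It ran from -1.69 to 0.36 for calcitriol in wild type and from -1.73 to 0.32 for the difference. The upper values of these calcitriol results were those without the wild-type pair with IFN-gamma. The cause was not tested. Depth has no direct measure on arrays, where dim signals and 8 arrays set the precision, and 15.5% of tested values were at the floor. The blocks were pairs of arrays that share genotype or treatment, since with 1 array a group there are no replicate numbers to pair.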
